A study of Sus scrofa with 10 samples.

Results

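Inhibitor of apoptosis proteins (IAPs) and related survival factors were described in pig morulae grown after siRNA against DDB1, which encodes an adaptor of CUL4 ubiquitin ligases. The 9 genes sought were XIAP, BIRC2, BIRC3, BIRC5, BIRC6, CFLAR, AVEN, API5 and DAD1, chosen by name among 24358 genes in the deposited gene table. Of these, 6 were found under their symbol, and XIAP and AVEN were found through their Ensembl identifiers. BIRC2 had no row of its own, so 8 genes with 28 listed isoforms were analysed. Matured oocytes had received siRNA, were activated without sperm and grew to the morula. In the 5 DDB1_KD libraries the siRNA targeted DDB1, and in the 5 NC libraries it was non-specific. All embryos were therefore parthenotes, which carry no paternal genome, and the labels give neither the number of embryos per library nor whether libraries came from separate cultures. P-values thus rest on how these libraries vary, and some of that variation may be technical.

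Apoptosis is carried out by caspases, proteases that are held inactive until the apoptosome or a death receptor complex switches them on. IAPs carry a zinc-binding BIR domain, with which some of them, such as XIAP, block active caspases. Others act as ubiquitin ligases in signalling, and BIRC5 serves mainly in cell division. The remaining survival factors act at other steps, from the death receptor to the apoptosome and the endoplasmic reticulum. Mammalian preimplantation embryos commonly lose some cells to apoptosis.

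The libraries held 32466912 to 50911295 estimated counts. Embryo pluripotency markers were present, with all 8 that had a row at a mean of at least 1 FPKM (fragments per kilobase of transcript, scaled to library depth). Of 10 cumulus and granulosa markers none reached that level and CYP11A1, FSHR and AMH had no count in any library. The 10 summed to 0.228 to 1.14 FPKM in DDB1_KD and 0.242 to 1.22 FPKM in NC. None of 6 fibroblast markers reached a mean of 1 FPKM. Of 5 blood markers with a row CD68 and HBB did, and the 5 summed to 1.57 to 7.79 FPKM in DDB1_KD and 1.63 to 10.6 FPKM in NC. By summed FPKM DDB1_KD replicate 2 stood apart: its 10 trophectoderm markers summed to 40.1 FPKM, against 184 to 820 FPKM in the other DDB1_KD libraries and 504 to 1110 FPKM in NC. Its 11 oocyte markers summed to 505 FPKM, against 16.4 to 184 FPKM in the other DDB1_KD libraries and 26.9 to 159 FPKM in NC. DDB1, the target, stood at 0.92, 1.30, 1.28, 1.30 and 1.55 FPKM in DDB1_KD and at 3.59, 3.12, 2.53, 3.15 and 4.44 FPKM in NC, without overlap. Its log2 fold change was -1.39 (SE 0.28, adjusted p = 0.977 by edgeR's quasi-likelihood test and 0.0069 by DESeq2).

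None of the 8 genes passed a test of DDB1_KD against NC over all 8476 genes with a mean of at least 1 FPKM. All 8 passed that filter, and 0 of 8 had an adjusted p (Benjamini-Hochberg) under 0.05 by edgeR's quasi-likelihood test, where 0% of all genes did. By DESeq2 0 of 8 passed, with 0.0236% of all genes, and by limma 0 of 8, with 0% of all genes. DDB1, the siRNA's target, did not pass by edgeR or limma either (adjusted p = 0.977 and 0.969). Not passing therefore does not show that a gene was unchanged. At an unadjusted p under 0.05 there were also 0 of 8, against 2.89% of all genes. The groups overlapped for each of the 8, whereas they did not overlap for 0.413% of all genes. By the fitted value 5 were lower in DDB1_KD, where 50% of all genes were, and the median log2 fold change was -0.10 for the 8 genes and 0.00 for all genes. The 95% intervals of the fold changes show what these libraries can bound. For DAD1 the interval ran from -0.39 to 0.40 and for BIRC5 from -0.70 to 0.01, but for AVEN from -2.62 to 1.32.

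**Figure D1:**
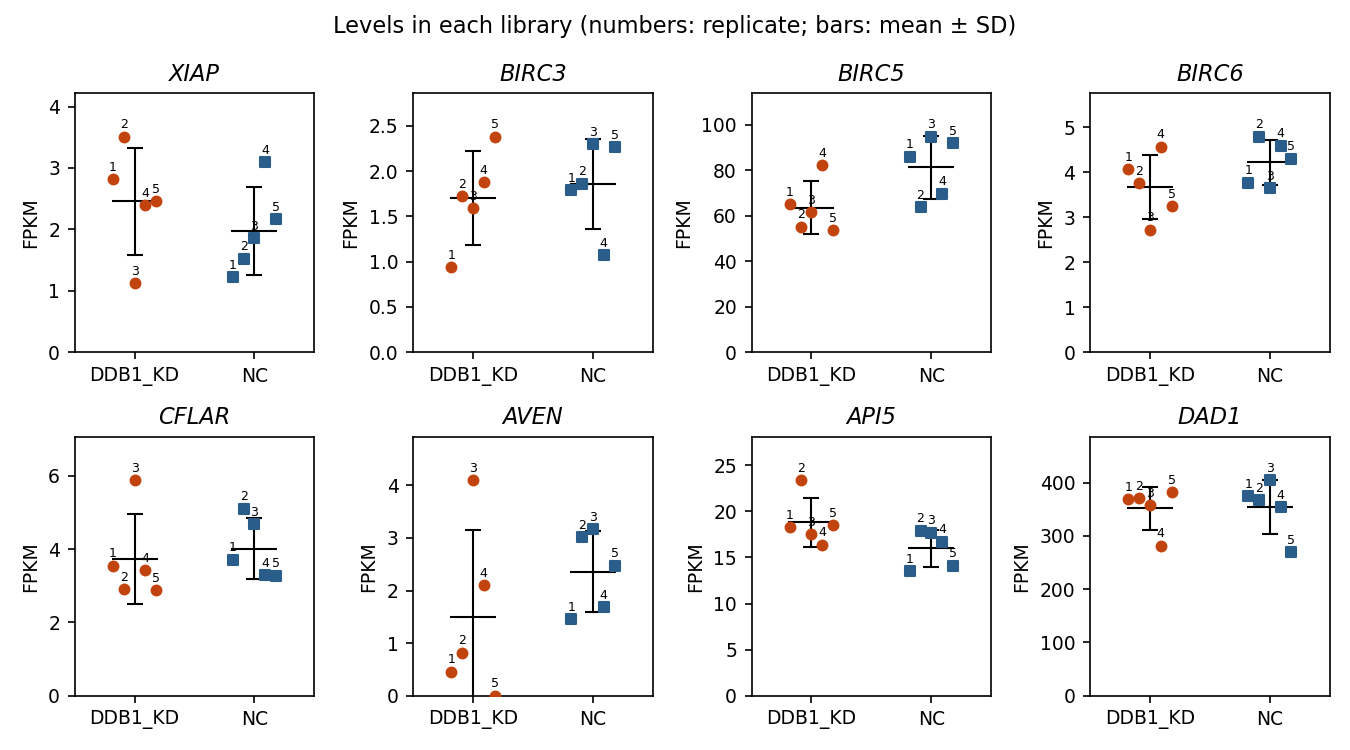
FPKM of each of the 8 genes (y axis, starting at 0) in the 5 DDB1_KD and the 5 NC libraries (x axis). Points are libraries numbered by replicate and bars are the mean ± SD. The groups overlap in every panel, and for BIRC5 no DDB1_KD library lies above the NC median of 85.9 FPKM.

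The 8 genes covered a wide range of levels, and their order was set at the top and loose at the bottom. DAD1 averaged 353 FPKM over the 10 libraries, BIRC5 72.4 FPKM and API5 17.4 FPKM. These 3 did not overlap with each other or with the rest in any library. BIRC6 (3.95 FPKM) and CFLAR (3.87 FPKM) came next by gene FPKM, with BIRC6 the higher in 7 of 10 libraries. Rows with several isoforms had a gene FPKM below their isoform sum, so their place beside rows with 1 isoform depends on the scale. CFLAR's isoforms ENSSSCT00000062262 and ENSSSCT00000053079 averaged 3.33 and 3.05 FPKM, whereas BIRC6 had 1 isoform, at 3.95 FPKM. XIAP (2.22 FPKM), AVEN (1.93 FPKM) and the BIRC3 row (1.78 FPKM) had overlapping ranges, and XIAP exceeded AVEN in 5 of 10 libraries. The genes that act on caspases or death receptors were thus listed at far lower levels per length than survivin and DAD1. By gene FPKM, XIAP's level was 0.0182 to 0.0637 times that of BIRC5 in DDB1_KD and 0.0142 to 0.0443 times in NC.

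XIAP, on the X chromosome (101399374 to 101440020, plus strand, susScr11 build), encodes the IAP that binds and inhibits caspases directly. It had 2.82, 3.51, 1.12, 2.39 and 2.46 FPKM in DDB1_KD replicates 1 to 5, and 1.22, 1.52, 1.86, 3.09 and 2.17 FPKM in NC replicates 1 to 5. DDB1_KD held both the highest library, replicate 2, and the lowest, replicate 3. The means were 2.46 ± 0.871 FPKM in DDB1_KD against 1.97 ± 0.717 FPKM in NC (± SD, n = 5 per group). The log2 fold change was 0.31 (SE 0.33, adjusted p = 0.977 by edgeR), and it was 0.17 without DDB1_KD replicate 2 and 0.57 without NC replicate 4.

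BIRC3 encodes a RING-type ubiquitin ligase of the cellular IAP pair, whose other member is BIRC2. Both modify RIPK1 at the tumour necrosis factor receptor and restrain the NF-kB-inducing kinase. The row named BIRC3 spans chromosome 9 from 33003017 to 33063418 on the plus strand, and in RefSeq (Sscrofa11.1) that stretch holds 2 genes. BIRC3 lies there from 33003570 to 33020252 and LOC100622859 from 33041592 to 33062865. The row's own description in the deposited table names baculoviral IAP repeat-containing protein 2 and cites the identifier of LOC100622859. Of its 10 isoforms, 5 lie over the upstream gene and 4 over the downstream gene, and the 1 that joins both had no count in any library.

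How much of the row the downstream locus held depended on the scale. It made up 85.1%, 77.0%, 95.9%, 78.4% and 50.9% of the row's summed isoform FPKM in DDB1_KD replicates 1 to 5, and 81.7%, 65.3%, 79.2%, 84.9% and 71.6% in NC replicates 1 to 5. DDB1_KD replicate 5 was the lowest of the 10 libraries and DDB1_KD replicate 3 the highest. The share was 77.5 ± 16.6% in DDB1_KD against 76.5 ± 7.97% in NC (± SD, n = 5 per group, exact two-sided permutation p = 0.944). Of the row's estimated counts, which unlike FPKM grow with isoform length, it held 66.5%, 63.6%, 88.9%, 68.7% and 37.4% in DDB1_KD, against 70.6%, 56.2%, 68.9%, 68.2% and 56.1% in NC. By counts it was thus the larger locus in 9 of 10 libraries, the exception being DDB1_KD replicate 5, with 552 counts downstream and 925 upstream. The loci are neighbouring paralogs, so how reads were divided between them is uncertain.

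Fitted apart, a split chosen after seeing the data, neither locus passed. The downstream locus had 2.91, 4.19, 6.63, 3.91 and 3.57 FPKM in DDB1_KD, against 3.82, 3.51, 6.58, 3.08 and 5.80 FPKM in NC. Its log2 fold change was -0.13 (SE 0.28, adjusted p = 0.977 by edgeR). The upstream locus had 0.509, 1.25, 0.285, 1.08 and 3.44 FPKM in DDB1_KD, against 0.858, 1.87, 1.73, 0.551 and 2.30 FPKM in NC. DDB1_KD replicate 5 was its highest library, and the log2 fold change, -0.05 (SE 0.52, adjusted p = 0.992 by edgeR), was -0.70 without that library. For the whole row it was -0.10 (SE 0.28, adjusted p = 0.979 by edgeR), with 1.70 ± 0.523 FPKM in DDB1_KD against 1.85 ± 0.496 FPKM in NC (± SD, n = 5 per group).

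**Figure D2:**
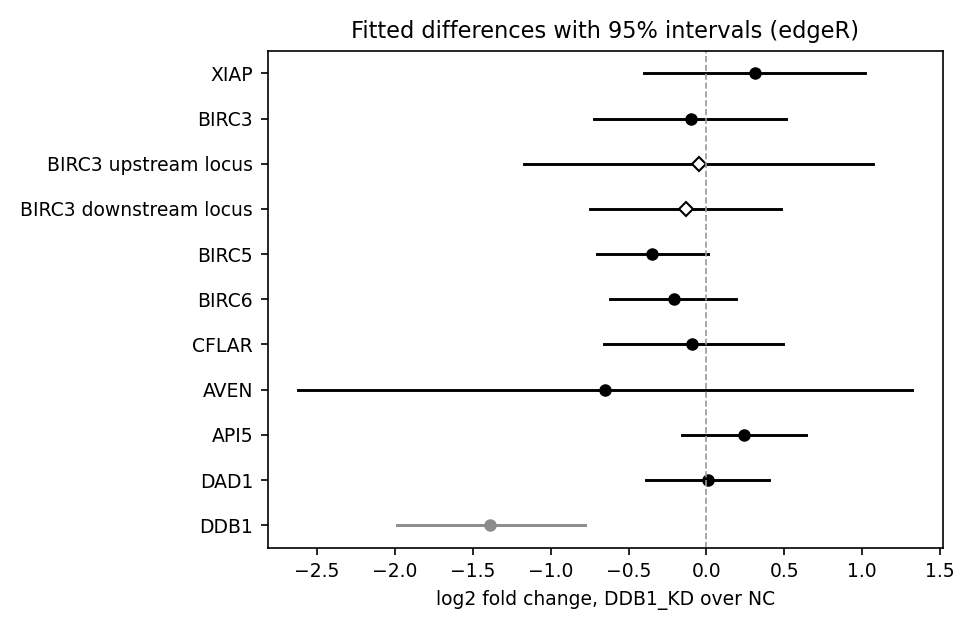
Log2 fold change of DDB1_KD over NC (x axis) for the 8 genes, for the 2 loci inside the BIRC3 row (open diamonds) and for DDB1 (grey). Lines are 95% intervals of the edgeR fit. The interval of each of the 8 genes includes 0 and AVEN has the widest, whereas that of DDB1 runs from -1.99 to -0.78.

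BIRC5, or survivin, is a small IAP that works in the chromosomal passenger complex during mitosis, and in mice embryos without it fail early in development. Its row is on the minus strand of chromosome 12 between 3747271 and 3755207 with 1 listed isoform of 4 exons. Its levels were 65.1, 55.1, 61.4, 82.3 and 53.6 FPKM in DDB1_KD replicates 1 to 5 and 85.9, 63.8, 94.7, 69.6 and 91.9 FPKM in NC replicates 1 to 5. No DDB1_KD library exceeded the NC median, 3 of 5 lay below every NC library, and DDB1_KD replicate 4 lay within the NC range. The means were 63.5 ± 11.5 FPKM in DDB1_KD against 81.2 ± 13.8 FPKM in NC (± SD, n = 5 per group), or 78.7% of NC in the fit.

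BIRC5 had the smallest p of the 8 genes but ranked 299th of 8476. Its log2 fold change was -0.35 (SE 0.17, unadjusted p = 0.0573 and adjusted p = 0.977 by edgeR), and an exact two-sided permutation test over the libraries gave p = 0.0556. When 1 library was left out it was lowest, -0.41, without DDB1_KD replicate 4 and highest, -0.28, without DDB1_KD replicate 2. The unadjusted p by edgeR was 0.0332 without DDB1_KD replicate 4 (adjusted p = 0.469) and 0.0425 without NC replicate 2 (adjusted p = 0.971). It rose to 0.133 without NC replicate 3 (adjusted p = 0.950). The unadjusted p under 0.05 that BIRC5's isoform reached (0.0391, adjusted p = 1 by edgeR) was the only such p among 12 member isoforms tested, where 3.36% of all isoforms had one.

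No partner of BIRC5 in the passenger complex passed the test. AURKB, a kinase of the complex, had 40.3 ± 8.54 FPKM in DDB1_KD against 36.7 ± 15.8 FPKM in NC (± SD, n = 5 per group, log2 fold change 0.15, SE 0.30). CDCA8, the borealin subunit, stood at 0.04 (SE 0.26) and the scaffold INCENP at -0.03 (SE 0.33). AURKC, the related kinase known from germ cells, had 21.1 ± 7.89 FPKM in DDB1_KD against 23.8 ± 6.58 FPKM in NC (log2 fold change -0.18, SE 0.26). BIRC5 exceeded AURKB in all 10 libraries, by 1.32 to 1.85 times in DDB1_KD and by 1.63 to 3.79 times in NC. Of 12 tested genes of the complex and of BIRC5's other partners, 6 were higher and 6 lower by the fitted value and 0 passed (median 0.00). SGO2, a protector of centromeric cohesion, had the smallest p of this list (log2 fold change 0.49, SE 0.25). It was 0.34 without DDB1_KD replicate 2 and 0.63 without DDB1_KD replicate 4. HSP90AB1, a chaperone that stabilises survivin, followed at -0.44 (SE 0.35) and SGO1 at 0.16 (SE 0.21), each with an adjusted p of 0.977 by edgeR. HSP90AB1 and SGO1 were -0.23 and -0.02 without DDB1_KD replicate 2, and -0.68 and 0.24 without DDB1_KD replicate 4.

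BIRC6 encodes a very large IAP that joins a ubiquitin-conjugating and a ligase activity. Its row lies on the minus strand of chromosome 3 between 107013931 and 107269370, with 1 isoform of 77 exons, and overlaps an unnamed gene on the other strand. Levels were 4.07, 3.75, 2.72, 4.57 and 3.24 FPKM in DDB1_KD, against 3.77, 4.79, 3.65, 4.59 and 4.30 FPKM in NC. DDB1_KD replicates 3 and 5 lay below every NC library. The means were 3.67 ± 0.718 FPKM in DDB1_KD against 4.22 ± 0.499 FPKM in NC (± SD, n = 5 per group, log2 fold change -0.21, SE 0.19, adjusted p = 0.977 by edgeR). Of the 7 genes listed as its partners in ubiquitin transfer and abscission, 4 were higher, 3 lower and 0 passed (median 0.13). Among them the deubiquitinase USP8 stood at 0.42 on the log2 scale (SE 0.23), the conjugating enzyme UBE2Z -0.36 (SE 0.39) and RACGAP1, of the central spindle, 0.19 (SE 0.23). USP8 was 0.31 without DDB1_KD replicate 2 and 0.57 without DDB1_KD replicate 4. UBE2Z was -0.77 without DDB1_KD replicate 4 and -0.20 without DDB1_KD replicate 3, and RACGAP1 was 0.03 without DDB1_KD replicate 5 and 0.30 without DDB1_KD replicate 1. UBA6, the activating enzyme that charges BIRC6, stood at -0.03 (SE 0.33).

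CFLAR encodes c-FLIP, a relative of CASP8 without protease activity that binds FADD and limits CASP8 activation at death receptors. Its row runs on the plus strand of chromosome 15 between 104781528 and 104862664, past the RefSeq end of CFLAR at 104835631 and into CASP10. One isoform reaches that far and was listed in DDB1_KD replicate 5 alone, at 0.775 FPKM. CFLAR had 3.55, 2.90, 5.88, 3.43 and 2.88 FPKM in DDB1_KD, against 3.71, 5.10, 4.68, 3.29 and 3.27 FPKM in NC. DDB1_KD replicate 3 was the highest of the 10 libraries, and replicates 2 and 5 lay below every NC library. The log2 fold change was -0.09 (SE 0.26, adjusted p = 0.980 by edgeR), and it was -0.34 without DDB1_KD replicate 3 and 0.051 without NC replicate 2.

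Most other genes of the death receptor complex were under the filter. Of 12 with a row, 5 were tested, 2 higher and 3 lower in DDB1_KD (median -0.03), and 0 passed. DAP3, a mitochondrial ribosomal protein also linked to death signalling, had 6.51, 10.9, 9.69, 9.05 and 9.71 FPKM in DDB1_KD, against 6.66, 6.19, 7.87, 4.54 and 7.31 FPKM in NC. In DDB1_KD 4 of 5 libraries lay above every NC library, and the log2 fold change was 0.51 (SE 0.20, unadjusted p = 0.0262 and adjusted p = 0.977 by edgeR). DAP3 was named because it had the smallest p of its list, and 2.89% of all genes had an unadjusted p under 0.05 by edgeR. DAP3 was 0.43 without NC replicate 4 and 0.62 without DDB1_KD replicate 1. The adaptor FADD stood at -0.11 on the log2 scale (SE 0.24) and the kinase RIPK1 at -0.27 (SE 0.40). Without DDB1_KD replicate 4 they stood at -0.26 and -0.60, FADD was -0.02 without DDB1_KD replicate 3, and RIPK1 was -0.04 without DDB1_KD replicate 1. CASP8, the caspase that CFLAR restrains, averaged 0.0944 FPKM in DDB1_KD and 0.0295 FPKM in NC, under the filter.

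**Figure D3:**
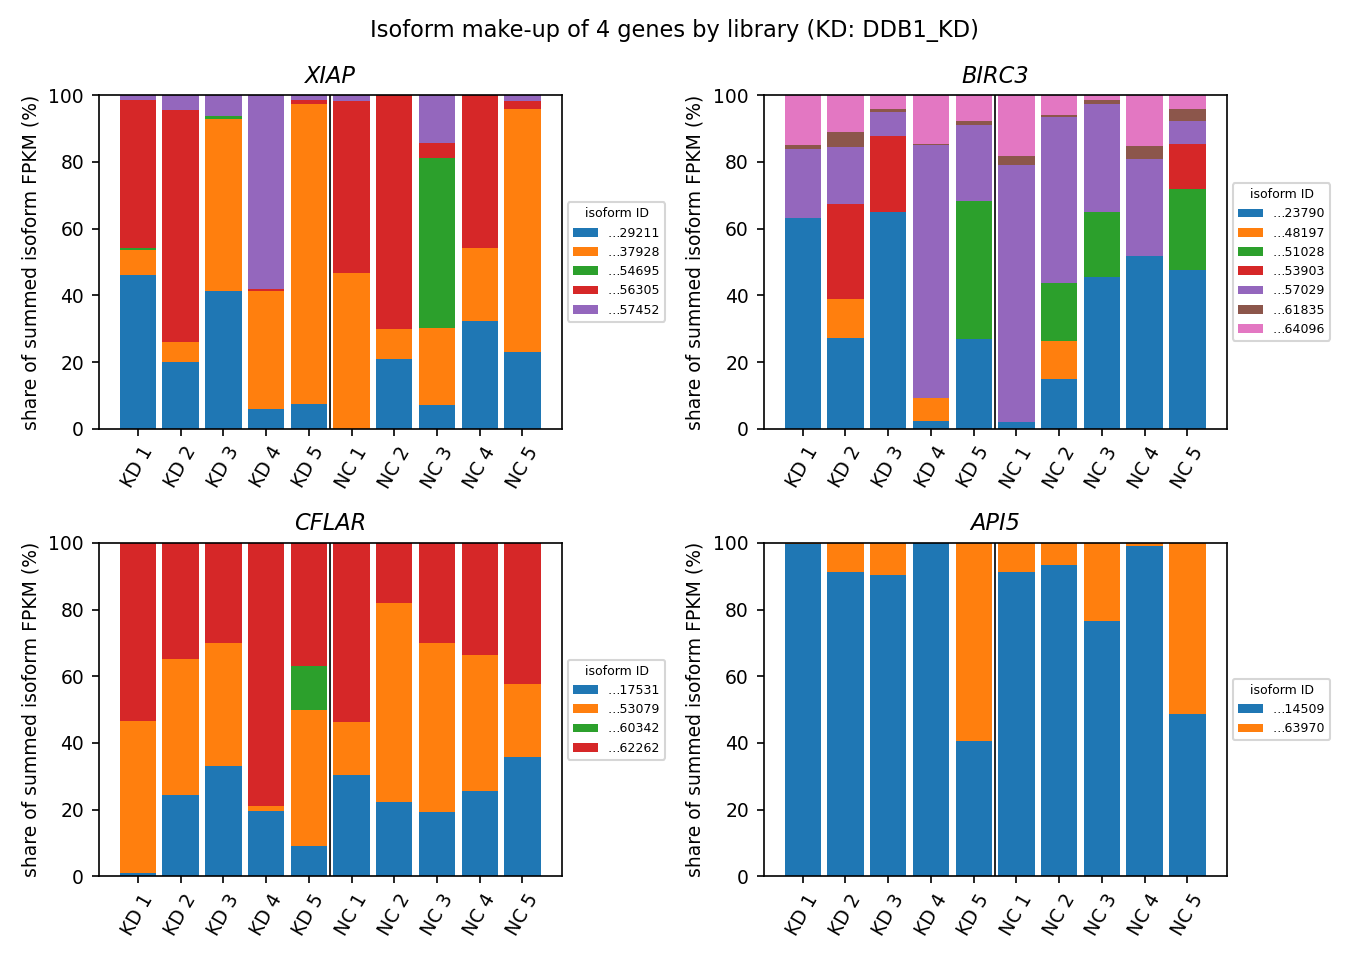
Share of the summed isoform FPKM of XIAP, BIRC3, CFLAR and API5 held by each isoform (stacked bars, percent) in each library, DDB1_KD left of the black line and NC right of it. Colours are isoforms, named by the last digits of their identifiers, and the second API5 isoform is largest in replicate 5 of both groups.

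Isoform levels were spread widely between libraries: the 3 tested CFLAR isoforms had coefficients of variation of 44.4% to 105% in DDB1_KD and 18.3% to 62.2% in NC, against 33.3% in DDB1_KD and 20.9% in NC for the gene. Of the 28 listed, 6 had no count in any library and 12 passed the filter, of which 0 passed edgeR's test (0.00889% of all isoforms did). The most abundant isoform of CFLAR was ENSSSCT00000062262, with 5 exons inside the gene between 104797303 and 104809131. It held 53.5%, 34.8%, 29.9%, 78.8% and 36.9% of the gene's isoform FPKM in DDB1_KD and 53.7%, 18.0%, 30.1%, 33.7% and 42.3% in NC. The 11-exon isoform ENSSSCT00000053079 had 2.63 ± 1.73 FPKM in DDB1_KD, against 3.46 ± 2.15 FPKM in NC, and the 10-exon isoform ENSSSCT00000017531 had 1.62 ± 1.70 FPKM in DDB1_KD against 2.30 ± 0.421 FPKM in NC (± SD, n = 5 per group).

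The XIAP isoform with the highest mean, ENSSSCT00000056305, led some libraries and was near absent from others in both groups. It held 44.4%, 69.7%, 0%, 0.796% and 1.15% in DDB1_KD and 51.4%, 70.1%, 4.50%, 45.8% and 2.24% in NC. API5 used ENSSSCT00000014509 at 99.7%, 91.2%, 90.3%, 100% and 40.6% in DDB1_KD and at 91.4%, 93.4%, 76.4%, 99.2% and 48.8% in NC, so replicate 5 was the lowest in both groups. In 5 exact two-sided permutation tests of such shares, 1 each for XIAP, BIRC3, CFLAR and API5 and 1 for the loci of the BIRC3 row, the raw p was 0.373 or more. Whether these shares reflect transcripts or the division of reads among overlapping isoforms was not tested.

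AVEN, which binds the survival protein BCL2L1 and the apoptosome scaffold APAF1, had the fewest reads. Its row covers chromosome 7 from 80626016 to 80639728 on the plus strand, 13713 bases, whereas RefSeq's AVEN spans 192784 bases, so the row may count part of the gene. Counts were 17, 30, 150, 60 and 0 in DDB1_KD and 45, 113, 93, 74 and 102 in NC. A count of 0, in DDB1_KD replicate 5, allows up to 3 counts in that library. DDB1_KD replicates 1, 2 and 5 lay below every NC library and replicate 3 above all. The log2 fold change was -0.65 (SE 0.91, adjusted p = 0.977 by edgeR), and it was -1.57 without DDB1_KD replicate 3 and -0.32 without DDB1_KD replicate 5. Its partner BCL2L1 had a log2 fold change of -0.72 (SE 0.47), with DDB1_KD replicate 4 lowest at 0.438 FPKM, and APAF1 one of 0.43 (SE 0.34). Without DDB1_KD replicate 4 BCL2L1 was -0.46 and APAF1 0.63, and without DDB1_KD replicate 5 BCL2L1 was -1.10 and APAF1 0.17.

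API5 encodes a nuclear protein that protects cells from apoptosis, in part by binding ACIN1. Its row is on the minus strand of chromosome 2 between 18962271 and 18994240. Its levels were 18.3, 23.4, 17.5, 16.4 and 18.5 FPKM in DDB1_KD, against 13.5, 17.9, 17.7, 16.7 and 14.1 FPKM in NC. Libraries 1, 2 and 5 of DDB1_KD lay above every NC library, and none lay below. The means were 18.8 ± 2.68 FPKM in DDB1_KD against 16.0 ± 2.05 FPKM in NC (± SD, n = 5 per group, log2 fold change 0.24, SE 0.19, adjusted p = 0.977 by edgeR, exact two-sided permutation p = 0.0952). Without DDB1_KD replicate 2 the log2 fold change was 0.17, and without DDB1_KD replicate 4 it was 0.32. ACIN1 itself stood at -0.26 on the log2 scale (SE 0.20), at -0.16 when NC replicate 1 was left out and at -0.37 when NC replicate 5 was. Of 6 tested partners of AVEN and API5, 2 were higher, 4 lower and 0 passed (median -0.27).

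DAD1 is a small subunit of the oligosaccharyltransferase, which attaches sugar chains to proteins in the endoplasmic reticulum, and hamster cells that lose it die by apoptosis. Its row is on the plus strand of chromosome 7 between 76431964 and 76457890, with 1 listed isoform. Levels were 369, 371, 358, 282 and 382 FPKM in DDB1_KD, against 375, 367, 405, 354 and 270 FPKM in NC. DDB1_KD replicate 4 and NC replicate 5 were low and the other 8 libraries lay close together. The means were 352 ± 40.4 FPKM in DDB1_KD against 354 ± 50.7 FPKM in NC (± SD, n = 5 per group). The log2 fold change was 0.01 (SE 0.18, adjusted p = 0.996 by edgeR), and it changed sign under several settings.

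Of 10 other oligosaccharyltransferase subunits tested, 5 were higher and 5 lower by the fitted value and 0 passed (median -0.01). STT3A, a catalytic subunit, had 31.8, 60.5, 36.6, 31.4 and 31.0 FPKM in DDB1_KD, against 30.8, 30.2, 27.3, 28.1 and 26.9 FPKM in NC. These groups did not overlap, as was so for 0.413% of all genes, though the lowest DDB1_KD and the highest NC library were 31.0 and 30.8 FPKM. STT3A was named because it had the smallest p of its list. The log2 fold change was 0.42 (SE 0.20, adjusted p = 0.977 by edgeR), 0.22 without DDB1_KD replicate 2 and 0.51 without DDB1_KD replicate 4. MAGT1, the thioredoxin-like subunit, stood at 0.45 (SE 0.25, 0.30 without DDB1_KD replicate 2 and 0.61 without DDB1_KD replicate 4). OSTC stood at 0.33 (SE 0.28, 0.21 without NC replicate 5 and 0.52 without DDB1_KD replicate 4).

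**Figure D4:**
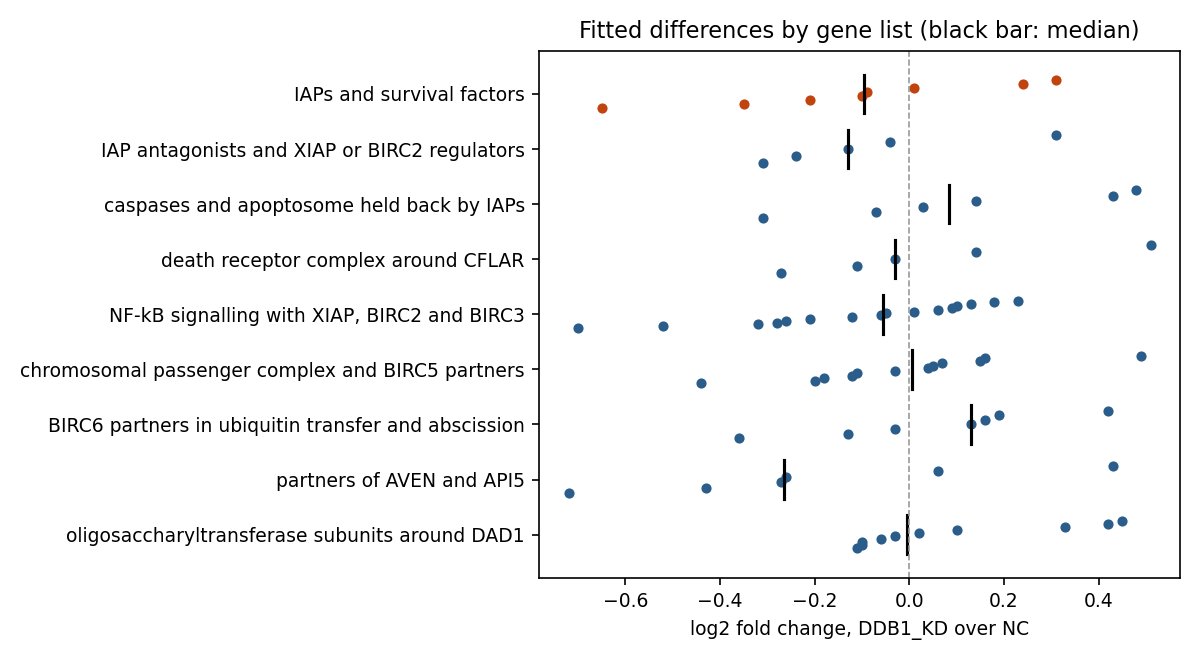
Log2 fold change of DDB1_KD over NC (x axis) for the tested genes of each list (points) with the list's median (black bars), the 8 IAP and survival factor genes at the top. Points of each list with tested genes lie on both sides of 0, and the medians run from -0.27 to 0.13.

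The genes that oppose IAPs, or that IAPs hold back, did not pass either. DIABLO, the mitochondrial protein that displaces caspases from XIAP, had 131, 216, 198, 119 and 141 FPKM in DDB1_KD, against 117, 128, 154, 131 and 122 FPKM in NC. Replicates 2 and 3 of DDB1_KD were above all NC libraries, and the log2 fold change was 0.31 (SE 0.20, adjusted p = 0.977 by edgeR). That fold change was 0.22 without DDB1_KD replicate 2 and 0.43 without DDB1_KD replicate 4. By gene FPKM, DIABLO's level was 46.4 to 177 times that of XIAP in DDB1_KD and 42.5 to 95.5 times in NC. Of 5 tested IAP antagonists and regulators, 1 was higher and 4 lower (median -0.13). GSPT1, a translation termination factor whose processed form binds IAPs, stood at -0.31 (SE 0.26) and UXT at -0.13 (SE 0.16). GSPT1 was -0.14 without DDB1_KD replicate 5 and -0.45 without DDB1_KD replicate 1. UXT was -0.06 without NC replicate 3 and -0.19 without DDB1_KD replicate 5. Of 6 tested caspase and apoptosome genes, 4 were higher and 2 lower (median 0.08). CASP6 had 30.9 ± 10.9 FPKM in DDB1_KD against 22.6 ± 5.50 FPKM in NC (± SD, n = 5 per group, log2 fold change 0.48, SE 0.27). The CASP6 fold change was 0.26 without DDB1_KD replicate 3 and 0.63 without DDB1_KD replicate 4.

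In the NF-kB pathway, 16 of 24 genes with a row were tested, 7 higher and 9 lower in DDB1_KD (median -0.06), and 0 passed. RELA, the transactivating NF-kB subunit, had 0.845, 0.984, 0.74, 5.43 and 0.692 FPKM in DDB1_KD, against 2.90, 1.46, 1.92, 3.17 and 4.03 FPKM in NC. DDB1_KD replicate 4 was above all NC libraries and the other 4 DDB1_KD libraries were below all of them. The log2 fold change was -0.70 (SE 0.55, adjusted p = 0.977 by edgeR), and without DDB1_KD replicate 4 it was -1.67 (SE 0.33, unadjusted p = 0.000305 and adjusted p = 0.469 by edgeR). Without DDB1_KD replicate 5 RELA was -0.51. NFKBIA, the inhibitor and target gene of RELA, stood at -0.52 (SE 0.35), at -0.31 without DDB1_KD replicate 2 and at -0.69 without DDB1_KD replicate 5. TRAF6, a ubiquitin ligase of the pathway, stood at -0.28 (SE 0.24, -0.13 without NC replicate 3 and -0.37 without DDB1_KD replicate 4). BIRC7, the other BIR-domain gene with a row, reached 0.436 FPKM at most in DDB1_KD and 0.392 FPKM at most in NC, under the filter.

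Oocyte transcripts, which embryos clear as their own genome becomes active, differed widely between libraries, so the 8 genes were also read beside them. In a fit with the group and the mean log2 CPM (counts scaled to library depth) of 10 oocyte markers as terms, added after seeing the data, 0 of 8 genes had a slope on the marker level with an adjusted p under 0.05 by edgeR, where 2.73% of all genes did (2.58% with a positive and 0.142% with a negative slope). The BIRC3 row had the smallest p of them, with 0.22 log2 units per log2 unit of the markers (SE 0.12, unadjusted p = 0.0878, adjusted p = 0.340). With that term the group difference on the log2 scale was 0.39 for XIAP, -0.28 for the BIRC3 row, -0.31 for BIRC5, -0.15 for BIRC6, -0.14 for CFLAR, -0.95 for AVEN, 0.19 for API5 and -0.03 for DAD1. Of these group differences 0 had an adjusted p under 0.05 by edgeR, and the smallest unadjusted p by edgeR was 0.0888, for BIRC5. Without the term the group difference of the BIRC3 row was -0.10, and DAD1's sign turned. The mean log2 CPM of the oocyte markers was 5.20 in DDB1_KD replicate 2, near replicates 3 (4.60) and 5 (4.47) of DDB1_KD. It was lowest in DDB1_KD replicate 1 (1.37) and NC replicate 5 (1.94). In bulk RNA, fewer cells of a type and less RNA per cell cannot be told apart.

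The genes whose pattern over the 10 libraries was most like each member were found by Pearson's r of log2 CPM among 8475 other genes, as a description without a test. For BIRC5 they were HBEGF (0.919), IGF2R (0.916) and GRHPR (0.915). For XIAP they were EFCAB2 (0.972), KIF2C (0.913) and IMPDH1 (0.895). API5 was nearest to CREBRF (0.981), DAD1 to RPA3 (0.962), BIRC6 to TMED7 (0.947), AVEN to the small RNA row RF00424 (0.932), CFLAR to NDUFA12 (0.917) and the BIRC3 row to SHTN1 (0.879). None of the 8 was among the 3 genes nearest to another of the 8. The highest of 8475 values is large by selection, and the libraries share their differences in oocyte and trophectoderm transcripts.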

How the data were processed

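RNA of 10 pig morula libraries (5 DDB1_KD, 5 NC) was sequenced with paired ends, per the labels' protocols. The submitters' processing notes name fastp, HISAT2, HOMER, ChIPseeker, StringTie and edgeR without versions or roles, and the build susScr11. The deposited tables give FPKM and estimated counts per gene and isoform, per the file headers. The estimated counts are whole numbers deposited by the authors, gene counts equal the sums of isoform counts, and isoform counts follow FPKM times length. They may thus be derived from coverage, and limits from them cover counting error only. The sources used here do not say if reads were assigned by strand.

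Groups came from sample titles, and columns spelled DBB1 were matched by number. Symbols came from the table, then Ensembl names, then RefSeq (Sscrofa11.1). Features averaging 1 FPKM or more (8476 genes, 11250 isoforms) were tested with edgeR 4.0.16 (TMM, glmQLFit, glmQLFTest, group alone) in R 4.3.3, with DESeq2 1.42.0 and limma 3.58.1 (trend, log2(FPKM + 1)) beside it, and Benjamini-Hochberg adjustment over all features tested. SE and intervals rest on the unshrunken coefficient (SE is its size over the root of F), while fold changes carry edgeR's default prior count. Exact permutations used log2(FPKM + 1), or shares in percent, over all ways to assign the libraries. Alternatives changed scaling, filter, test, variance model, replicate block and single libraries. The fits were tested on simulated data. Python 3.11.15 and matplotlib 3.10.9 did the rest. Named are DDB1, the members, up to 3 tested genes per list with the smallest p, and the 3 genes most like each member. A gene that this rule names is not reported here. AURKB, AURKC, CDCA8, INCENP, UBA6, CASP8 and BIRC7 were named after their values were seen. Members and lists were chosen with earlier results of these data known.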

Additional observations from a re-analysis of the deposited data

Results flagged for a closer look

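In groups of 5 libraries, the gap between the most extreme library and its nearest neighbour was set against the group's range, and a ratio above 0.71 marked a library far from the others. Of 80 such groups examined, 5 were marked, and chance marks about 1 in 20. CFLAR in DDB1_KD had its highest value, 5.88 FPKM, in replicate 3. DAD1 in DDB1_KD had its lowest, 282 FPKM, in replicate 4. The main API5 isoform in DDB1_KD had its lowest share, 40.6%, in replicate 5. RELA in DDB1_KD had its highest value, 5.43 FPKM, in replicate 4, and STT3A in DDB1_KD its highest, 60.5 FPKM, in replicate 2.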

How the results depend on the processing

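Under each alternative run, 0 of the 8 genes and 0 genes of the pathway lists passed, and 0 isoforms of the 8 genes did under each but the oocyte term, which was fitted for genes alone. Over all features, DESeq2 called 2 genes and 68 isoforms, and limma with a pseudocount of 0.1 called 2 isoforms. Without a filter, with a mean FPKM of at least 0.1 and with robust variance 0 isoforms were called, and 0 to 2 when 1 library was left out. The labels do not say whether replicate numbers pair the libraries. Same-numbered deviations correlated at over 0.1 in 2 of 5 numbers, and 1 of 5 was nearest to its own number. With so few numbers these values cannot settle whether libraries were paired. With the replicate block, 0 isoforms and 0 genes were called, BIRC5 stayed at -0.35 and AVEN was -1.50, while XIAP isoform ENSSSCT00000056305 was -1.55 and API5 isoform ENSSSCT00000063970 was -1.63.

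The sign of DAD1 turned with total-count scaling (-0.007), no filter (-0.005), the lower filter (-0.003), limma at either pseudocount (-0.002) and the oocyte term (-0.033). BIRC3 isoform ENSSSCT00000023790 was -0.044 with total-count scaling. With limma at pseudocounts of 1 and 0.1, the XIAP isoform was -0.048 and -0.65 and the API5 isoform -0.23 and -0.84. The cause was not tested. With 1 library left out, log2 fold changes that turned ranged from -0.28 to 0.061 (BIRC3), -0.34 to 0.051 (CFLAR), -0.092 to 0.11 (DAD1), -0.70 to 0.20 (upstream locus), -0.28 to 0.014 (downstream locus), -0.92 to 0.74 (the XIAP isoform), -0.49 to 0.36 (ENSSSCT00000023790), -0.74 to 0.021 (CFLAR isoform ENSSSCT00000053079) and -1.49 to 0.95 (the API5 isoform). Differences in share, DDB1_KD minus NC, ranged from -3.09 to 13.2 percentage points (BIRC3 isoform), -5.74 to 13.5 (API5 isoform) and -3.67 to 7.56 (downstream locus). AVEN's depth, at most 150 counts in DDB1_KD and 113 in NC, limits what can be said of it.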

Other observations

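The gene FPKM of rows with several isoforms was below the sum of their isoform FPKM, so levels of the 2 loci inside the BIRC3 row, given as isoform sums, stand on another scale than the gene row. Of 21 member isoforms with counts in both groups, 6 had their highest library under the same replicate number in both groups. The share over all isoforms was not counted, and with 5 numbers chance alone gives some matches, so no pattern is read from this. For ENSSSCT00000063970 of API5, ENSSSCT00000037928 of XIAP and ENSSSCT00000051028 of BIRC3 that number was 5. These isoforms had 11.2, 2.57 and 2.90 FPKM in DDB1_KD replicate 5 and 7.37, 1.94 and 1.96 FPKM in NC replicate 5. They were singled out after their values were seen.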
